A study of Mus musculus with 2 samples.

Results

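The genes of the proteasome, the large protease that degrades proteins tagged with ubiquitin, were examined in skeletal muscle of newborn mice. All protein-coding genes were taken whose symbol is Psma, Psmb, Psmc, Psmd, Psme, Psmf or Psmg followed by a number alone. This gave 48 genes of the 21474 protein-coding genes and 43346 gene IDs that the files hold, and all 48 were found in both samples. RNA longer than 200 nt was isolated from muscle of B6NCrl mice on postnatal day 0, and 10 ng entered each total RNA library. The 2 samples are pup 2 and pup 1 of 1 pregnancy, with no treatment or altered allele named in the labels. They form 1 group, so no conditions were compared. The labels give both pups the same donor entry, do not name the muscle and state that sex was not collected. Values are means ± SD over the pups (n = 2), and this spread is that of separate animals only if the descriptions of the pups are right. With 2 samples an exact sign-flip test cannot go below p = 0.5, so no p-values are given.

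The gene rows summed to 37150646 counts in pup 2 and 40454569 counts in pup 1, and proteasome genes took 0.625% and 0.659% of them. The 8 skeletal muscle marker genes were all above 1 TPM (the deposited level per transcript length, scaled to a fixed sum in each library), led by skeletal actin, Acta1, at 57562 TPM in pup 2 and 49664 TPM in pup 1. The libraries differed in markers of other tissues. The summed level of 8 epidermis markers was 9.14 TPM in pup 2 and 454 TPM in pup 1, that of 6 adipocyte markers 889 TPM and 4983 TPM, and that of 5 cartilage markers 0.8 TPM and 37.1 TPM. The part of these tissues in the proteasome levels below was not tested. In bulk RNA, fewer cells of a type and less RNA per cell cannot be told apart.

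The 20S core of the proteasome is a barrel of stacked rings. The outer rings are built of alpha subunits (Psma genes), which gate the entry, and the inner rings of beta subunits (Psmb genes), of which Psmb6, Psmb7 and Psmb5 encode the sites that cut peptide bonds, at the places beta 1, beta 2 and beta 5. Interferon-gamma induces Psmb9, Psmb10 and Psmb8, whose products take those places in the immunoproteasome, a form abundant in leukocytes that changes the peptides offered on class I histocompatibility molecules. The 19S particle caps the core, binds ubiquitin chains and unfolds the substrate with a ring of ATPases (Psmc genes), while other activators (Psme genes) open the core without ATP. In muscle the ubiquitin and proteasome pathway degrades contractile proteins, and it is known for its role in wasting.

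Start regions of 5 of the genes are shown because they belong to the immune and constitutive subunits, and to the activator gene Psme1, that the results turn on. RefSeq promoter windows (GRCm38.p6, 250 bases before to 50 bases after the annotated start) were found for 40 of the 48 genes. Capitals mark the letters that matched a searched motif on either strand. The motifs were the antioxidant response element core TGACNNNGC, which Nfe2l1 and related factors bind, the interferon-stimulated response element core (GAAA, any 2 bases, GAAA), the STAT site TTCNNNGAA and the CCAAT box. No matches of different motifs overlapped. The windows lie at chr17:34187281-34187580 on the minus strand for Psmb9, chr17:34197945-34198244 on the plus strand for Psmb8, chr14:55578244-55578543 on the plus strand for Psme1, chr11:70525107-70525406 on the plus strand for Psmb6, and chr14:54617946-54618245 on the minus strand for Psmb5.
Psmb9: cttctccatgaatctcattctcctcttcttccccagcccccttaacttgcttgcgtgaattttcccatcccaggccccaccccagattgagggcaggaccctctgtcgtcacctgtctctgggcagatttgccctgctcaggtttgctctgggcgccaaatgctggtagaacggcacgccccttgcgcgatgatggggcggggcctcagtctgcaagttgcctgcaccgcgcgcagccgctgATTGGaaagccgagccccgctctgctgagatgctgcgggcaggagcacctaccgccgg
Psmb8: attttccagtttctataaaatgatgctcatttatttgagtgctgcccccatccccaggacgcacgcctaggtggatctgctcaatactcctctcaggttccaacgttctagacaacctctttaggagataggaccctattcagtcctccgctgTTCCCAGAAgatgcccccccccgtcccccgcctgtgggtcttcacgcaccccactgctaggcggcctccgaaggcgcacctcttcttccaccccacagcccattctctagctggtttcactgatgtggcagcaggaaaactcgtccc
Psme1: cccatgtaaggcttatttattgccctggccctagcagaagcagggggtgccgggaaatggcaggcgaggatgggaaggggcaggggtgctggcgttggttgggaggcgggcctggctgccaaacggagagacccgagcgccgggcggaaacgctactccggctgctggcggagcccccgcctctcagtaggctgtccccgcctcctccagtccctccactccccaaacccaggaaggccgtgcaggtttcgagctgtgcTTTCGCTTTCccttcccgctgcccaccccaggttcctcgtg
Psmb6: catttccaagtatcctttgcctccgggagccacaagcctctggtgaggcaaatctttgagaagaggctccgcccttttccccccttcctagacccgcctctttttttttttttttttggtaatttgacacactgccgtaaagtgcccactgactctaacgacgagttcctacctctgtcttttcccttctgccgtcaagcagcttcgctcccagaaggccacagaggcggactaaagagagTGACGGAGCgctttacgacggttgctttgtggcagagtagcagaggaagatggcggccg
Psmb5: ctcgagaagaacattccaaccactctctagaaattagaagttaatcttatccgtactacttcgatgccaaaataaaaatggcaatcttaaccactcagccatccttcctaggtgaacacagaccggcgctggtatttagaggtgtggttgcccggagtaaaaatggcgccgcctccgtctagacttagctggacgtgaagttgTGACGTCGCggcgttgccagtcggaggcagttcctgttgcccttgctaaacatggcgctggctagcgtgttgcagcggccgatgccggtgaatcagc

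The Psmb6 and Psmb5 windows each held the antioxidant response element core, beginning 9 and 47 bases before the start, while the Psmb8 window held a STAT site. The Psme1 window held the interferon-stimulated core after the start, and the only match in the Psmb9 window was a CCAAT box on the other strand. The antioxidant core was in the windows of 6 of 40 genes (15%), against 14% of all 27025 genes with a window: Psmb5, Psmb6, Psmc6, Psmd12, Psmd9 and Psme4. The interferon-stimulated core was in 5 of 40 (12.5%, against 3.99% of all genes): Psmb3, Psmd4, Psmd9, Psme1 and Psmg4. The STAT site was in 3 (7.5%, against 9.55%) and the CCAAT box in 14 (35%, against 41.1%). The starts used by RefSeq and GENCODE differ: the window start is 434 bp from the GENCODE start of Psmb9, 474 bp for Psmb8 and 371 bp for Psme1, but 10 bp for Psmb6 and 27 bp for Psmb5. For Psmb9, Psmb8 and Psme1 the whole window lies after the GENCODE start. The bases before that start were not searched, so a motif missing from these windows may be present there. Of the 40 genes, 31 have the RefSeq and GENCODE starts within 100 bp. The largest offset was 58777 bp, for Psmd9, so its matches lie far from its GENCODE start.

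The proteasome was broadly transcribed in newborn muscle, and its median levels differed by particle. Single genes of the core, from 189 to 567 TPM, and of the 19S particle, from 87.4 to 285 TPM, overlapped in range. Of 48 genes, 46 reached 1 TPM in both pups, where 56.3% of all protein-coding genes did. The summed level was 7358 TPM in pup 2 and 7979 TPM in pup 1, that is 0.736% and 0.798% of all TPM. The 14 constitutive core genes had the highest median of the particles, 266 ± 24.8 TPM, the 17 genes of the 19S particle a median of 156 ± 15.3 TPM, and the 7 assembly chaperones 35.3 ± 6.54 TPM. The 19S median stood below the core median by nearly the same factor in each pup, at a log2 ratio of -0.78 in pup 2 and -0.77 in pup 1. The chaperone median lay below the core median by a log2 ratio of -3.02 in pup 2 and -2.83 in pup 1. The 46 genes kept nearly the same order in both pups (Pearson's r = 0.995 on log2 TPM, Spearman's rho = 0.989, n = 46 genes). This correlation runs across genes, which are not independent replicates, and shares the quantification of each library.

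**Figure D1:**
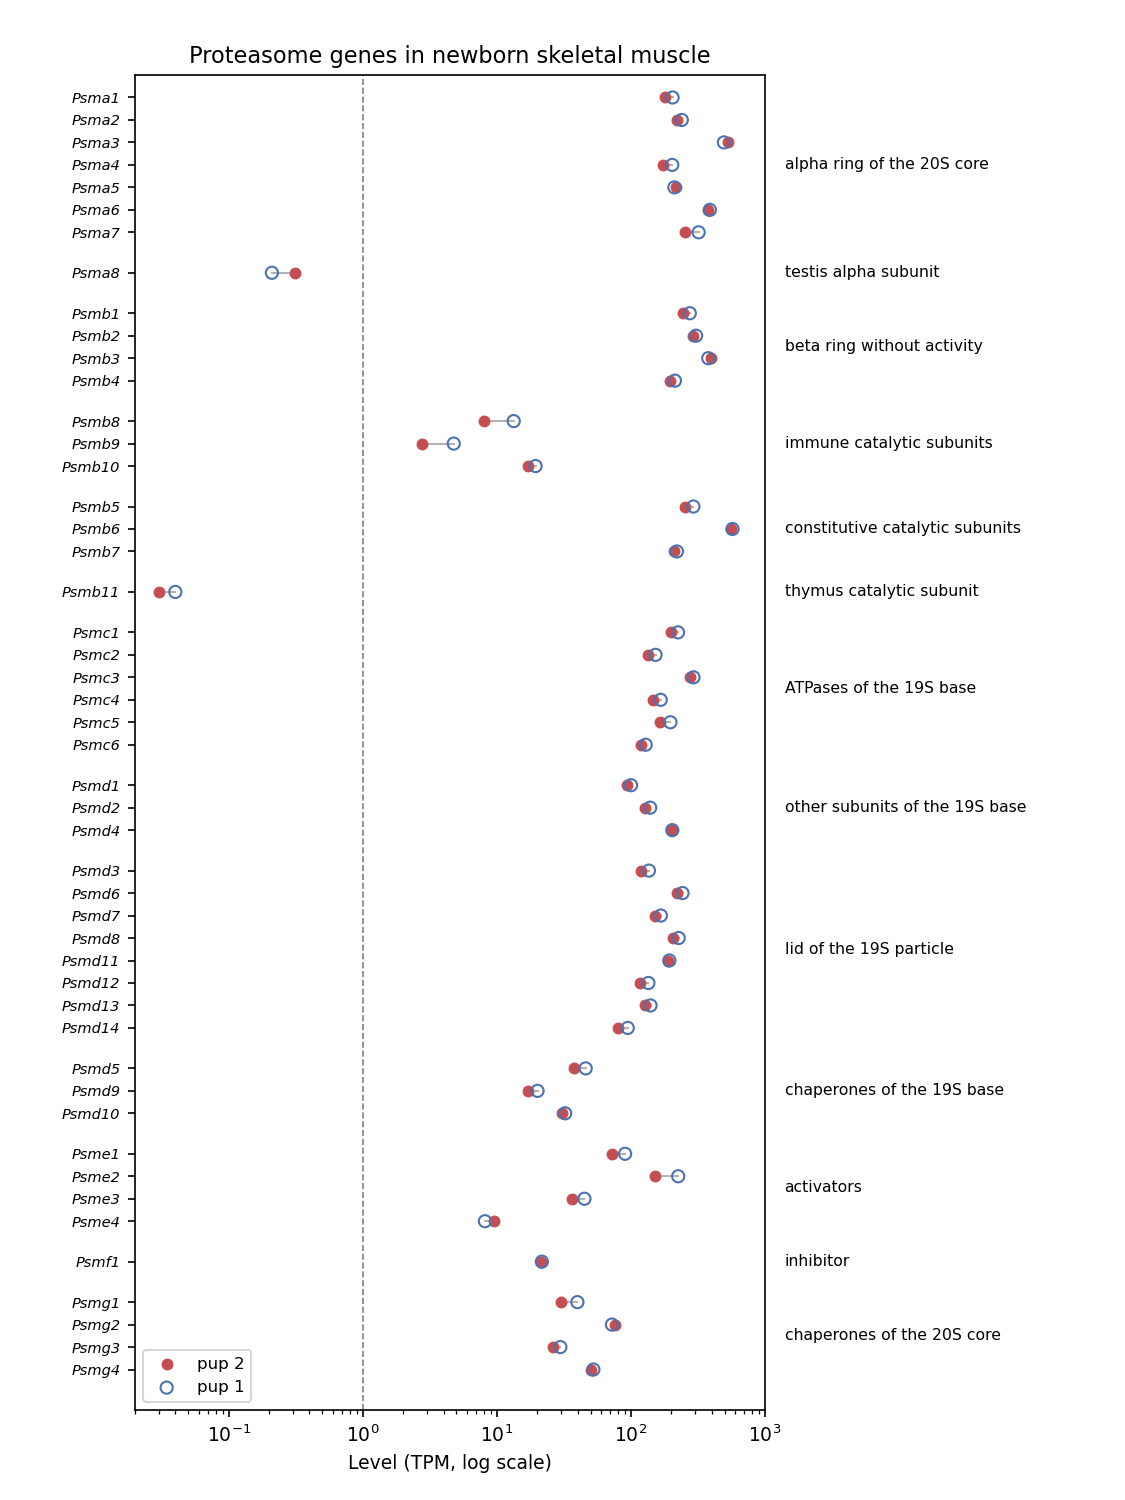
Level of each of the 48 proteasome genes in TPM on a log axis, with filled circles for pup 2 and open circles for pup 1, and a dashed line at 1 TPM. The core and 19S genes sit to the right between 80.0 and 572 TPM, the chaperones at 17.0 to 75.6 TPM, the immune catalytic genes between 2.75 and 19.4 TPM, and Psma8 and Psmb11 lie left of the dashed line.

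Of the alpha ring, whose 7 subunits enter each outer ring once, Psma3 was highest at 511 ± 24.6 TPM and Psma4 lowest at 189 ± 20.3 TPM. Psma6 stood at 381 ± 10.4 TPM, Psma7 at 287 ± 47.1, Psma2 at 230.3 ± 13.1, Psma5 at 215 ± 5.07 and Psma1 at 192 ± 17.4. All 6 neighbours in this order had the same order in both pups, and for 5 of them the ranges of the pups did not overlap, the exception being Psma1 over Psma4. The leading place of Psma3 rests on transcripts that are not annotated as coding, which are described below.

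The beta subunits without a cutting site were close to the catalytic ones. Psmb3 stood at 386 ± 12.8 TPM, Psmb2 at 299 ± 10.4, Psmb1 at 260.1 ± 21.1 and Psmb4 at 204 ± 12.4, and no neighbours in this order overlapped between the pups. The constitutive beta ring as a whole, 7 genes, exceeded the alpha ring by a log2 ratio of medians of 0.24 ± 0.07 (n = 2). Across the 14 core genes, which are needed in equal numbers in the particle, the highest level was 3.002 times the lowest. Separation was weaker over this whole set. Of its 13 neighbours by level, 9 had the same order in both pups, and the ranges of 5 were apart. The lowest core gene, Psma4, was at the 94.9 percentile of the 12495 protein-coding genes with a mean of at least 1 TPM.

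The immune catalytic genes were transcribed at a small fraction of their constitutive counterparts at every place, and the gap differed between the places. Psmb9 (chromosome 17, 34181987 to 34187764, minus strand, GENCODE on GRCm38) had 2.75 TPM in pup 2 and 4.77 TPM in pup 1. Psmb6 (chromosome 11, 70525367 to 70527858, plus strand), which holds the same place beta 1, had 562 TPM in pup 2 and 572 TPM in pup 1. The groups did not overlap, and the log2 ratio of Psmb9 over Psmb6 was -7.62 in pup 2 and -6.88 in pup 1 (mean -7.25 ± 0.53, n = 2, with 0.1 TPM added to each gene).

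At beta 5, Psmb8 (chromosome 17, 34197721 to 34201454, plus strand) had 8.03 TPM in pup 2 and 13.4 TPM in pup 1. Psmb5 (chromosome 14, 54614119 to 54618022, minus strand), the target of proteasome inhibitors such as bortezomib, had 252 TPM in pup 2 and 292 TPM in pup 1. The log2 ratio was -4.96 and -4.44 (mean -4.70 ± 0.36). At beta 2, Psmb10 (chromosome 8, 105935735 to 105938444, minus strand) had 17.2 TPM in pup 2 and 19.4 TPM in pup 1, against 209.6 TPM and 220.3 TPM of Psmb7 (chromosome 2, 38588036 to 38644087, minus strand). The log2 ratio was -3.60 and -3.49 (mean -3.55 ± 0.07), the smallest gap of the 3 places and the one most alike between the pups.

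Both pups thus had the same order of places, with the gap largest at beta 1. The log2 ratio at beta 2 exceeded that at beta 5 by 1.35 in pup 2 and 0.95 in pup 1, and that at beta 5 exceeded that at beta 1 by 2.67 in pup 2 and 2.44 in pup 1. The immune gene held 0.657% ± 0.24 of its pair's TPM at beta 1, 3.73% ± 0.907 at beta 5 and 7.84% ± 0.378 at beta 2. Psmb10 was the highest immune gene and Psmb9 the lowest, while Psmb6 was the highest constitutive gene and Psmb7 the lowest. Over all 6 genes the immune sum was 28.0 TPM in pup 2 and 37.6 TPM in pup 1, against constitutive sums of 1023 TPM and 1085 TPM. The immune share was 2.66% in pup 2 and 3.35% in pup 1 (3.004% ± 0.487). Taken from expected counts, which are not divided by length, the share was 4.31%.

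**Figure D2:**
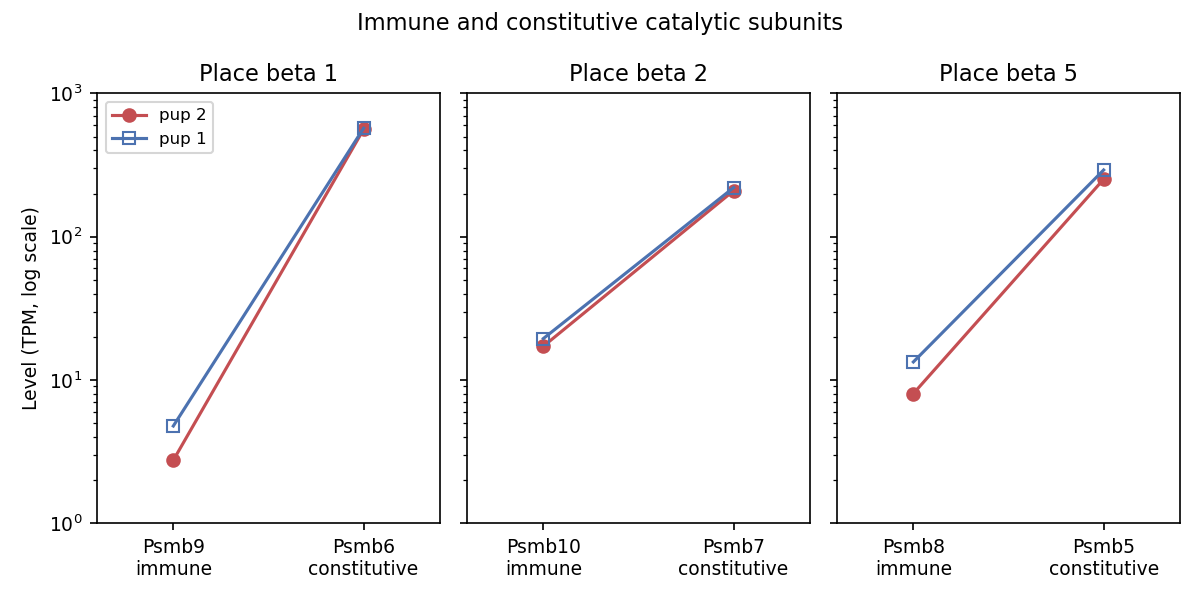
Levels in TPM, on a log axis, of the immune gene (left) and the constitutive gene (right) at the places beta 1, beta 2 and beta 5, with a line for pup 2 (circles) and a line for pup 1 (squares). The lines are steepest at beta 1, from Psmb9 at 2.75 and 4.77 TPM up to Psmb6 at 562 and 572 TPM, and the pups lie closest together at beta 2.

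Psmb9 and Psmb8 sit beside the peptide transporter genes in the histocompatibility region. The annotated starts of Psmb9 and Tap1 are 211 bp apart on opposite strands and the genes overlap by 212 bp, and Psmb8 begins 495 bp after the end of Tap1. Tap1, a subunit of the transporter that carries proteasome products into the endoplasmic reticulum, had 2.89 TPM in pup 2 and 4.33 TPM in pup 1, close to Psmb9. The sources used here do not say whether counting used strand, so reads from the overlap cannot be told apart. Of the 48 genes, 22 are overlapped by another annotated gene and 8 by one at 1 TPM or more in both pups.

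The forms built in the thymus and testis were nearly silent. Psmb11, the beta 5 subunit of the thymic cortex, had 3 counts in pup 2 and 5 counts in pup 1 (0.03 and 0.04 TPM), and its log2 ratio over Psmb5 was -10.98 ± 0.08, a value that depends on the added 0.1 TPM. Markers of thymic epithelium were as low, with 0 and 5 counts of Foxn1 and 1 and 6 counts of Prss16 in pup 2 and pup 1, although the third, Ccl25, had 2.89 and 4.47 TPM. Psma8, the alpha subunit of male germ cells that stands in for Psma7, had 14 counts in pup 2 and 10 counts in pup 1 (0.31 and 0.21 TPM), and its log2 ratio over Psma7 was -9.64 ± 0.52. The 5 germ cell markers had at most 8 counts in either pup, and Stra8 had 0 in both.

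In the 19S particle the ATPases of the base were slightly above the lid. The median of the 6 ATPase genes was 169 ± 18.9 TPM and that of the 8 lid genes 146 ± 10.5 TPM, a log2 ratio of 0.16 in pup 2 and 0.24 in pup 1. Psmc3 led the ATPases at 285 ± 11.7 TPM, followed by Psmc1 at 213 ± 16.9, Psmc5 at 181 ± 22.6, Psmc4 at 156 ± 15.3, Psmc2 at 144 ± 12.3 and Psmc6 at 124 ± 7.28. The ranges of the pups were apart for Psmc3 over Psmc1, Psmc1 over Psmc5 and Psmc2 over Psmc6, and they overlapped for the other 2 neighbours.

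Of the other base genes, Psmd4, a ubiquitin receptor, stood at 203 ± 0.544 TPM, and the scaffolds Psmd2 and Psmd1 at 133 ± 8.65 and 97.0 ± 4.44 TPM. The lid was led by Psmd6 at 231 ± 16.2 TPM and Psmd8 at 216 ± 15.4, with Psmd11 at 191 ± 4.15, Psmd7 at 159 ± 11.8, Psmd13 at 134 ± 9.19, Psmd3 at 128 ± 11.7 and Psmd12 at 126 ± 12.9. Psmd14, the enzyme that removes the ubiquitin chain before the substrate enters, had the lowest TPM of all 17 genes of the particle, at 80.0 TPM in pup 2 and 94.7 TPM in pup 1 (mean 87.4 ± 10.4). It is nevertheless at the 89.5 percentile of expressed protein-coding genes. The 17 genes spanned a 3.26-fold range. Ordered by level, 12 of their 16 neighbours had the same order in both pups, and the ranges of 3 were apart. Within the lid alone the ranges of 4 of 7 neighbours were apart. With coding transcripts only, Psmd13 was the lowest at 70.2 ± 1.67 TPM, below Psmd14 at 79.0 ± 11.7 TPM, and the range was 3.91-fold. This leaves out a Psmd13 transcript without an annotated class, which held 15.2% of the gene's TPM in pup 2 and 16.7% in pup 1. The order of Psmd13 and Psmd14, and the range, therefore depend on how that transcript is classed.

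The activators spanned a wider range than any particle, 21.3-fold over 4 genes. Psme2, the beta subunit of the PA28 activator that interferon-gamma induces, had 152 TPM in pup 2 and 225 TPM in pup 1. With coding transcripts only, Psme2 had 109.8 TPM in pup 2 and 150.5 TPM in pup 1. Psme1, the alpha subunit of the same ring, had 71.8 TPM in pup 2 and 90.5 TPM in pup 1. Psme3, which encodes the nuclear PA28 gamma, had 36.1 TPM in pup 2 and 45.0 TPM in pup 1. Psme4, the large PA200 activator, had 9.55 TPM in pup 2 and 8.15 TPM in pup 1, the only activator that was higher in pup 2. The PA28 alpha and beta genes thus stood far above the immune catalytic genes, which interferon-gamma also induces.

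Psme2 exceeded Psme1 by a log2 ratio of 1.09 in pup 2 and 1.31 in pup 1 (1.20 ± 0.16). The ratio fell to 0.82 with coding transcripts only and to 0.42 in expected counts, so its size depends on which transcripts are counted and on their length. Psme2b, a copy whose symbol adds a letter, which keeps it out of the 48, can share reads with Psme2. It had 1.93 TPM in pup 2 and 2.63 TPM in pup 1. The 4 annotated pseudogenes named after Psmb5, Psmb6 and Psmb7 had at most 6 counts each. The inhibitor gene Psmf1, whose product PI31 binds the core, had 21.4 TPM in pup 2 and 21.7 TPM in pup 1.

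The chaperones, which build the particles and leave them, stood below the core and the 19S particle. Of those of the core, Psmg2 stood at 73.9 ± 2.43 TPM, Psmg4 at 51.4 ± 1.59, Psmg1 at 34.9 ± 6.98 and Psmg3 at 27.9 ± 2.64. Of those of the base, Psmd5 stood at 41.7 ± 6.02 TPM, Psmd10 (gankyrin) at 31.5 ± 1.2 and Psmd9 at 18.6 ± 2.17. No neighbours within either group overlapped between the pups. Across the groups, the range of Psmg1 held that of Psmd10, at 30.6 TPM in pup 2 and 32.3 TPM in pup 1. Psmg1 and Psmg2 act as a dimer, yet Psmg1 had 30.0 TPM against 75.6 TPM of Psmg2 in pup 2, and 39.9 TPM against 72.2 TPM in pup 1.

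The other genes of the pathway were transcribed in both pups with few exceptions. Of 28 listed genes 27 were matched, and 26 of these reached 1 TPM in both pups. The exception was Nfe2l3, at 0.04 TPM in pup 2 and 0.4 TPM in pup 1, and Paaf1 was not analysed here. Pomp, which matures the core, stood at 202 ± 21.2 TPM, above every chaperone among the 48 genes. The 19S subunits Adrm1 and Sem1 stood at 147 ± 8.27 and 149.8 ± 6.72 TPM, within the range of the 19S genes above.

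Of the genes that make ubiquitin, Ubb stood at 1806 ± 171 TPM and Rps27a at 638 ± 6.94 TPM, each above every proteasome gene in both pups. The activating enzyme Uba1 was at 64.0 ± 7.64 TPM and the unfoldase Vcp at 314 ± 17.9 TPM. Nfe2l1, the factor that raises proteasome genes when the proteasome is inhibited, stood at 76.3 ± 2.67 TPM, and Nfe2l2 at 26.4 ± 2.55. The deubiquitinases of the 19S particle, Usp14 and Uchl5, stood at 56.1 ± 7.19 and 44.4 ± 2.41 TPM.

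Most proteasome RNA came from coding transcripts, with a few exceptions that bear on the levels above. In 40 of 48 genes at least 90% of TPM lay in transcripts annotated as protein coding in both pups, and 4 genes were under 75% in both. The same shares were not taken over all protein-coding genes, so these counts say nothing particular of the proteasome. Of the 40, 10 have only 1 annotated transcript, so their share was fixed in advance. Of Psma3, the coding share was 39.0% in pup 2 and 39.3% in pup 1. Its coding transcript Psma3-204 and the retained-intron transcript Psma3-203 were nearly level, at 34.7% and 33.7% in pup 2 and at 34.8% and 35.2% in pup 1. Psma3 was the only gene whose leading transcript differed between the pups.

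Psmb4 had a coding share of 58.3% in pup 2 and 52.1% in pup 1, the rest being retained-intron transcripts. Psmd13 had 54.4% in pup 2 and 51.0% in pup 1, led by the coding transcript Psmd13-201 at 46.3% and 46.7%, with 22.6% in pup 2 and 28.5% in pup 1 in transcripts annotated for nonsense-mediated decay. Psme2 had 71.99% in pup 2 and 66.8% in pup 1. Its leading transcript, the coding Psme2-201, held 38.0% of TPM in pup 2 and 39.5% in pup 1. Its retained-intron transcript Psme2-203, 185 nt long, held 22.7% of TPM in pup 2 and 30.5% in pup 1, but 3.26% and 4.77% of the gene's counts. That length is below the 200 nt limit of the isolated RNA, so the level given to Psme2-203 is doubtful. It adds 34.6 TPM in pup 2 and 68.8 TPM in pup 1 to the level of Psme2. With coding transcripts only, Psma3 was at 199.9 ± 8.58 TPM, the alpha ring was led by Psma6 at 379 ± 9.34 TPM, and its range narrowed to 2.05-fold. The range of the 14 core genes then widened to 4.75-fold, because Psmb4 came to 112 ± 2.09 TPM.

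**Figure D3:**
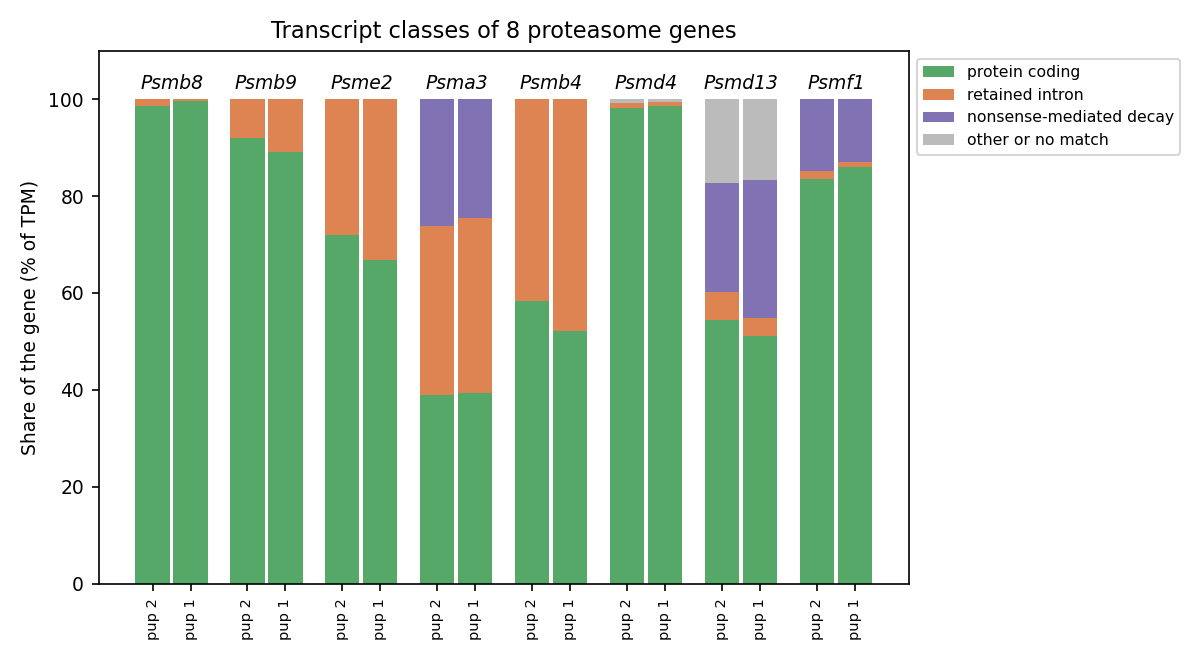
Share of a gene's TPM (percent, stacked bars starting at 0) in transcripts of each annotated class, for 8 genes, with pup 2 left of pup 1. Psma3, Psmb4 and Psmd13 have the smallest coding shares, from 39.0% to 58.3%, while the coding share of Psmb8 and Psmd4 is over 98.0%.

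Psmb10 and Psmb5 each have only 1 annotated transcript, so its share was fixed in advance. Psmb6-201 and Psmb7-201 took 94.1% and 94.99% of their genes in pup 2 and 94.0% and 90.3% in pup 1. Psmb8 split between 2 coding transcripts, with Psmb8-203 at 59.0% of TPM in pup 2 and 56.4% in pup 1, but Psmb8-201, which is longer, led in counts with 57.6% and 61.7%. Psmb9-204 held 70.9% of Psmb9 in pup 2 and 89.1% in pup 1, on 81 and 173 counts of the gene. Psme1-208 held 88.7% and 90.5% of Psme1, Psme3-201 held 91.8% and 92.4% of Psme3, and Psme4-201 held 74.8% and 79.5% of Psme4 in pup 2 and pup 1. Psmd4 was split between coding transcripts Psmd4-201, at 50.9% in pup 2 and 49.7% in pup 1, and Psmd4-202, at 46.2% and 47.4%.

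Between the pups the constitutive proteasome was nearly level, while 2 of the immune genes were lower in pup 2. Ratios were taken between TMM-scaled CPM, which are counts per library size, pup 2 over pup 1. From 100 mean counts, 0 of 46 proteasome genes passed 2-fold, where 2.43% of 12429 genes did (2.28% of them as lower in pup 2). The count was also 0 with DESeq2 size factors (background 2.46%) and with deposited TPM (background 2.91%). Past 1.5-fold were 2 of 46, Psmb8 and Psmb9, where 6.15% of all genes passed. Both shares are within a few genes of the background, so these counts say nothing particular of the proteasome. The median log2 ratio of the 47 genes with at least 10 mean counts was -0.02, against -0.01 for all 17004 such genes, and their scaled median absolute deviation was 0.13, against 0.28 for all genes. For the 5667 protein-coding genes with at least 1000 mean counts, which most proteasome genes also have, this deviation was 0.18.

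Of the 47 genes, 15 (background 25.2%) were lower in pup 2 and 15 (background 21.1%) were higher beyond counting error, that is with a 95% interval of the ratio that leaves out 1. The background takes in all genes from 10 mean counts, while most of the 47 have at least 1000. Their intervals are therefore narrower, and these shares are not like for like. A ratio below 0 on the log2 scale was found for 26 of 47, where 52% of all genes had one. By deposited TPM the median of all genes shifted to -0.15 and that of the proteasome genes likewise to -0.15, and 41 of 47 (87.2%) were below 0, where 70.0% of all genes were. The 6 others, Psma3, Psma5, Psma8, Psmb3, Psme4 and Psmg2, had a higher TPM in pup 2, and directions of small ratios therefore depend on the scaling.

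**Figure D4:**
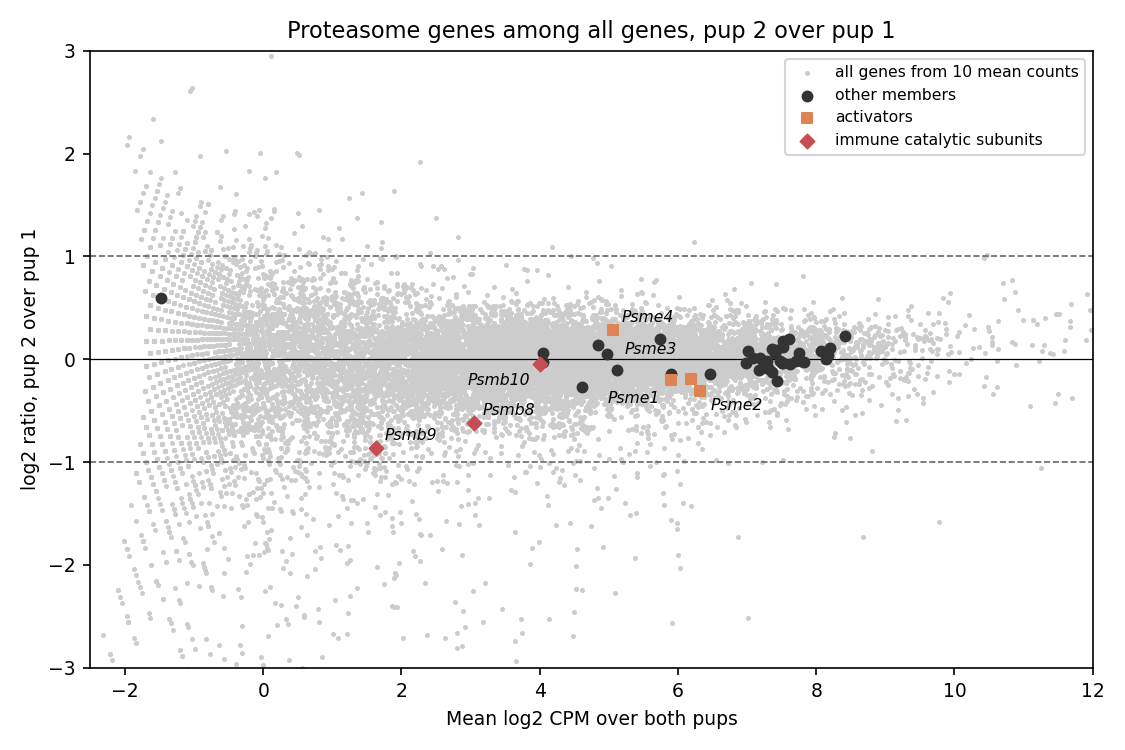
Log2 ratio of pup 2 over pup 1 (TMM-scaled CPM) against mean log2 CPM for all genes with at least 10 mean counts (grey), with proteasome genes as black circles, activators as orange squares and immune catalytic genes as red diamonds, and dashed lines at 2-fold. Of 17004 genes, 312 lie outside the axes. The proteasome genes crowd around 0 at high CPM, and Psmb8 and Psmb9 lie lowest of them, at -0.62 and -0.87.

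Psmb9 had 81 counts in pup 2 and 173 in pup 1, a ratio of 0.543 (counting interval 0.412 to 0.710, log2 -0.87). Psmb8 had 239 counts in pup 2 and 428 in pup 1, a ratio of 0.647 (0.550 to 0.760, log2 -0.62). Psmb10 had 569 counts in pup 2 and 681 in pup 1, a ratio of 0.968 (0.865 to 1.08) whose interval includes 1. Psmb10 was thus unlike the other two in this pair of libraries, and with 1 library per pup the difference was not tested.

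Of the activators, Psme2 had a log2 ratio of -0.31, Psme1 of -0.20 and Psme3 of -0.19, all beyond counting error, while Psme4 had 0.28. The constitutive core ran from -0.21 for Psma7 to 0.23 for Psma3 with a median of 0.07, and the 19S particle from -0.15 for Psmd14 to 0.12 for Psmd4 with a median of -0.02. The core chaperone Psmg1 had -0.27 and its partner Psmg2 0.20. The spread within the core and within the 19S particle was thus smaller than the ratios of Psmb8 and Psmb9. These 2 genes have far fewer counts than the core and 19S genes, so the comparison is not like for like. The scaled deviation was 0.28 for all genes from 10 mean counts, against 0.18 for protein-coding genes from 1000. The spread of genes with counts like those of Psmb8 and Psmb9 was not taken. By deposited TPM the ratios were -0.73 for Psmb8, -0.77 for Psmb9 and -0.18 for Psmb10, each in the same direction. By that scaling the median of all genes was itself -0.15, so a shared direction is no support, and Psmb10 lay close to that median.

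Genes of interferon signalling and antigen presentation were also lower in pup 2. All 16 listed genes with at least 10 mean counts had a log2 ratio below 0, 13 of them beyond counting error, with a median of -0.42. The class I heavy chain H2-K1 had 31.6 TPM in pup 2 and 76.0 TPM in pup 1, and its light chain B2m had 326 TPM and 499 TPM. Irf1, a factor that acts on the immune subunit genes, had 7.72 TPM in pup 2 and 10.6 TPM in pup 1. Nlrc5, a class I activator, was at 0.38 TPM in pup 2 and 0.63 TPM in pup 1, and Ifng, the gene of interferon-gamma, had 0 counts in both pups, where a count of 0 allows up to 3 counts.

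Most leukocyte markers were lower in pup 2 as well. Of 14 markers 12 reached 1 TPM in both pups, and their summed level was 779 TPM in pup 2 and 1336 TPM in pup 1. The mast cell genes Cma1 (315 TPM in pup 2 and 567 TPM in pup 1) and Cpa3 (261 TPM and 485 TPM) led the list. Ptprc, the pan-leukocyte marker, had 1.77 TPM in pup 2 and 2.60 TPM in pup 1, and Cd3e of T cells was under 1 TPM in both. The median log2 ratio of the 13 with at least 10 mean counts was -0.42, with 9 lower in pup 2 beyond counting error, and 1, H2-Aa, higher. The median was 0.03 for endothelium markers, -0.22 for fibroblast markers and -0.14 for erythroid genes, and it was 0.29 for the 8 muscle markers, all higher in pup 2. It was -8.16 for epidermis, -3.83 for adipocyte and -4.90 for cartilage markers, all lower in pup 2. The other proteasome and ubiquitin genes had a median of 0.01, with 9 of 27 lower and 7 higher beyond counting error. The part of these cell types in the ratios of Psmb8, Psmb9, Psme1 and Psme2 was not tested.

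**Figure D5:**
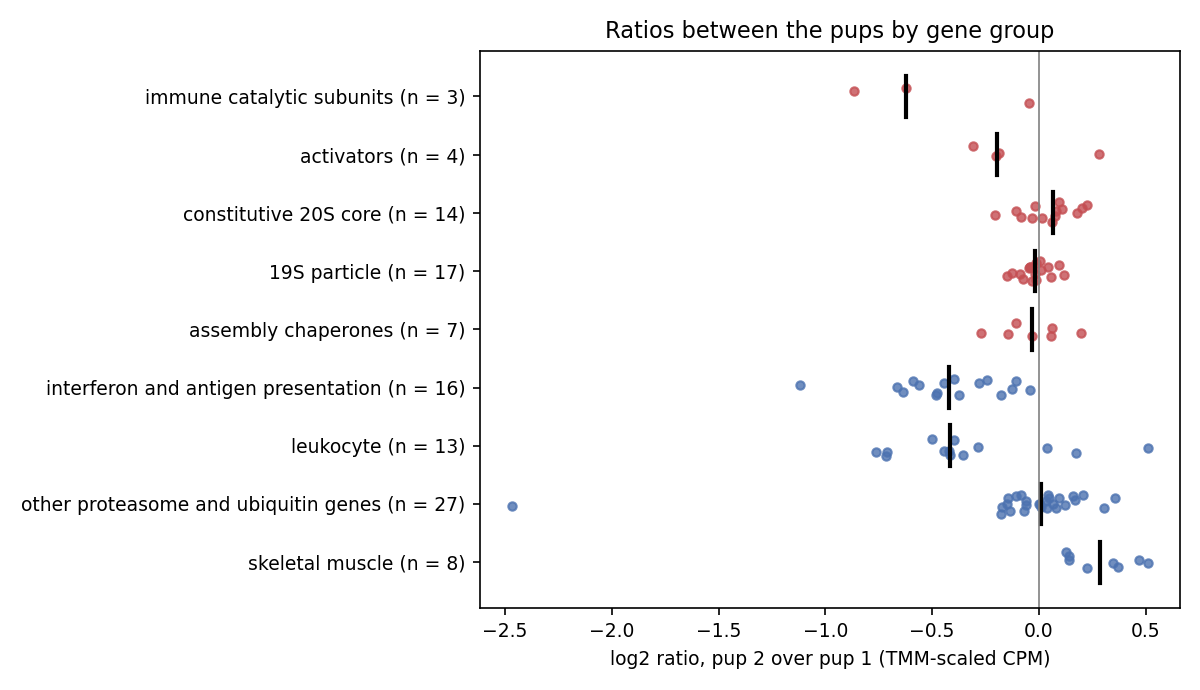
Log2 ratio of pup 2 over pup 1 (TMM-scaled CPM) of each gene, by group, with a black bar at the group's median and proteasome groups in red above other gene lists in blue. The medians are -0.62 for the immune catalytic genes and -0.42 for both the interferon and the leukocyte lists, while the core, the 19S particle and the chaperones lie near 0 and the muscle markers at 0.29.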

How the data were processed

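Total RNA was sequenced from 2 pups, 1 library each. Per the files that accompany the tables, the deposited values came from transcriptome alignments on mm10 with the GENCODE M4 annotation; the sources used here do not name the aligner or quantifier. The authors deposited expected counts (estimated reads per gene or transcript, with shared reads split by a model), TPM, a TPM from posterior means and, per the file headers, each transcript's percent of its gene's TPM. Names, classes and positions came from GENCODE M21, also of mm10, by unversioned ID (42462 of 43346 gene IDs matched; 214 of 219 transcripts of the 48 genes).

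Log2 ratios of TPM used 0.1 TPM added to each gene. For ratios between pups, expected counts were rounded, scaled over the whole table by TMM, and converted to CPM on the log2 scale by edgeR 4.0.16 under R 4.3.3 (prior count 2); size factors of DESeq2 1.42.0 were an alternative. The ratio step was tested on simulated data. Intervals are exact Clopper-Pearson at 95%, conditional on the summed counts. With 1 library per pup they cover counting error only. They may be too narrow even for that, because PCR copies were not told apart by molecular identifiers and shared reads were split by a model. The 2-fold rule asked for 100 mean counts and medians for 10. Motifs were searched on both strands of RefSeq promoter windows. All 48 genes are named; transcripts are named for catalytic, immune and activator genes, and where the leading transcript is not coding, under 50% of TPM, or unstable. The transcript classes of Psmb4 and Psmf1 were added after values were seen. Values of some listed genes are not reported here. The genes and lists were chosen with earlier results of these data known. Scripts ran in Python 3.11.15 with pandas 2.3.3, numpy 2.4.6, matplotlib 3.10.9 and scipy 1.17.1.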

Additional observations from a re-analysis of the deposited data

How the results depend on the processing

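Alternatives covered pseudocounts, posterior means, counts not divided by length, coding transcripts only, fold and count limits, scaling and each pup alone. By deposited TPM 41 of 47 ratios between the pups were below 0, against 26 with TMM, so small ratios changed sign, among them those of Psmb6 (-0.03 against 0.11) and Psmb7 (-0.07 against 0.10). Of the values for the comparisons above, 35 alternatives stayed within the spread or, for counts of genes, within 1.5 times, and 11 moved. For the median log2 ratio between the pups, the limit was instead the half-width of the log2 counting interval of the gene nearest that median. With n = 2, the value of a single pup always lies within the SD around the mean. The single-pup alternatives of such means were therefore bound to stay and are no evidence of stability. At 5 TPM 45 genes passed, since Psmb9 did not. In expected counts the log2 ratio was -6.59 for Psmb9 over Psmb6, -3.36 for Psmb10 over Psmb7, -4.25 for Psmb8 over Psmb5 and -10.62 for Psmb11 over Psmb5, and the immune share was 4.31%. Psmb10 over Psmb7 was -3.44 with coding transcripts only. Psmb11 over Psmb5 was -10.90 with posterior means, -12.94 with 0 TPM added and -8.04 with 1 TPM added. At 1.5-fold, 2 genes passed between the pups, and by deposited TPM the median log2 ratio was -0.15. For one pup alone the ranges were -7.62 to -6.88 (Psmb9 over Psmb6), -3.60 to -3.49 (Psmb10 over Psmb7), -4.96 to -4.44 (Psmb8 over Psmb5), -11.03 to -10.92 (Psmb11 over Psmb5) and 2.66% to 3.35% (immune share), with 46 genes at 1 TPM in each. Of other values, 55 alternatives stayed and 13 moved, with the single-pup alternatives again bound to stay. The coding-only and count values of Psme2 over Psme1, and the coding-only and posterior-mean values of the core's range, were chosen after seeing the data. Depth limits Psmb9, Psma8 and Psmb11 most. No paired analysis was possible because the samples form 1 group with 1 library per pup.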
